A study of Mus musculus with 24 samples.

Results

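The class II and class IV histone deacetylases were described across the hippocampus of 24 mice: Hdac4, Hdac5, Hdac7 and Hdac9 of class IIa, Hdac6 and Hdac10 of class IIb, and Hdac11, the class IV enzyme. The members were the probes whose gene name in the scanner files was one of these 7 symbols, with the older name Hdac7a taken as Hdac7, and they came to 12 of 41174 probes. RNA of each hippocampus (600 ng, C57Bl/6 mice, 1 mouse per array) was labelled with Cy3 and hybridised to 1-colour Agilent arrays in 6 groups of 4. Fear-conditioned mice aged 16 months (old fear) and 3 months (young fear) had spent 3 min in a chamber before a foot shock of 0.7 mA for 2 s, and tissue was taken 1 h later. Young context mice (3 months) explored the same chamber with no shock, and young shock-context mice (3 months) were shocked at once on entry and explored it afterwards; tissue of both was taken 1 h later. Old control mice (16 months) and young control mice (3 months) were handled without training. All animals were of 1 strain, no allele or drug was used, and the comparisons ask which genes answer to fear conditioning at each age, which differ with age, and which answer to the chamber or to the shock without the association.

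Histone deacetylases take acetyl groups off lysines. Class IIa enzymes have little catalytic activity of their own: they bind MEF2 transcription factors, bring in the NCoR/SMRT corepressor with Hdac3, and leave the nucleus bound to 14-3-3 proteins once calcium-dependent kinases have phosphorylated them, which in neurons couples them to activity. Hdac6 is mostly cytoplasmic and deacetylates tubulin and cortactin, Hdac10 deacetylates acetylated polyamines, and Hdac11 is a small enzyme that also removes long fatty acyl groups.

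Values are log2 signals relative to each array's 75th percentile, so 0 is the 75th percentile of that array; they are compared between groups for 1 probe and never between probes. Each change is the limma estimate with its standard error (SE), and a gene is said to have risen or fallen where its two-sided p, adjusted by Benjamini-Hochberg over 26089 genes, was below 0.05. The 16 control and fear arrays lay on slides 1 to 4 of 1 scan run, with 1 array of each of these groups on every slide, and the 8 context and shock-context arrays lay on 2 further slides of a later run. The 75th percentile of the raw intensity was 757 to 2137 in the earlier run and 3101 to 8369 in the later run, so in any comparison of context or shock-context mice with fear or control mice the scan run and the group cannot be told apart. The median of all genes differed by -0.34 between young fear and young control and by -0.48 and -0.42 between the context and shock-context groups and young control. Young fear arrays stood apart: all 11 measured markers of choroid plexus epithelium were lower than in young control arrays, beside 30.2% of all genes. Their summed level was 10.08 to 15.95 times the array's 75th percentile in young fear and 89.18 to 149.86 in young control. Of 12 markers of thalamus 9 were higher, beside 13.1% of all genes, and 1 was lower. The thalamus sum was 24.55 to 28.89 in young fear and 17.43 to 20.91 in young control. Summed levels of 5 other marker lists also did not overlap. Of genes taken singly 41.3% did not overlap between these groups, but that share is not a background for sums, which lean on their brightest genes. Young fear was lower than young control for blood cells (8.64 to 13.88, against 21.22 to 27.40), astrocytes (179.85 to 185.70, against 241.93 to 279.16), microglia (16.65 to 17.79, against 19.19 to 21.48) and striatum (10.56 to 12.59, against 14.48 to 16.43). It was higher for oligodendrocytes (176.35 to 192.90, against 141.69 to 151.28). Markers of hippocampal excitatory neurons were well above background in every group.

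**Figure D1:**
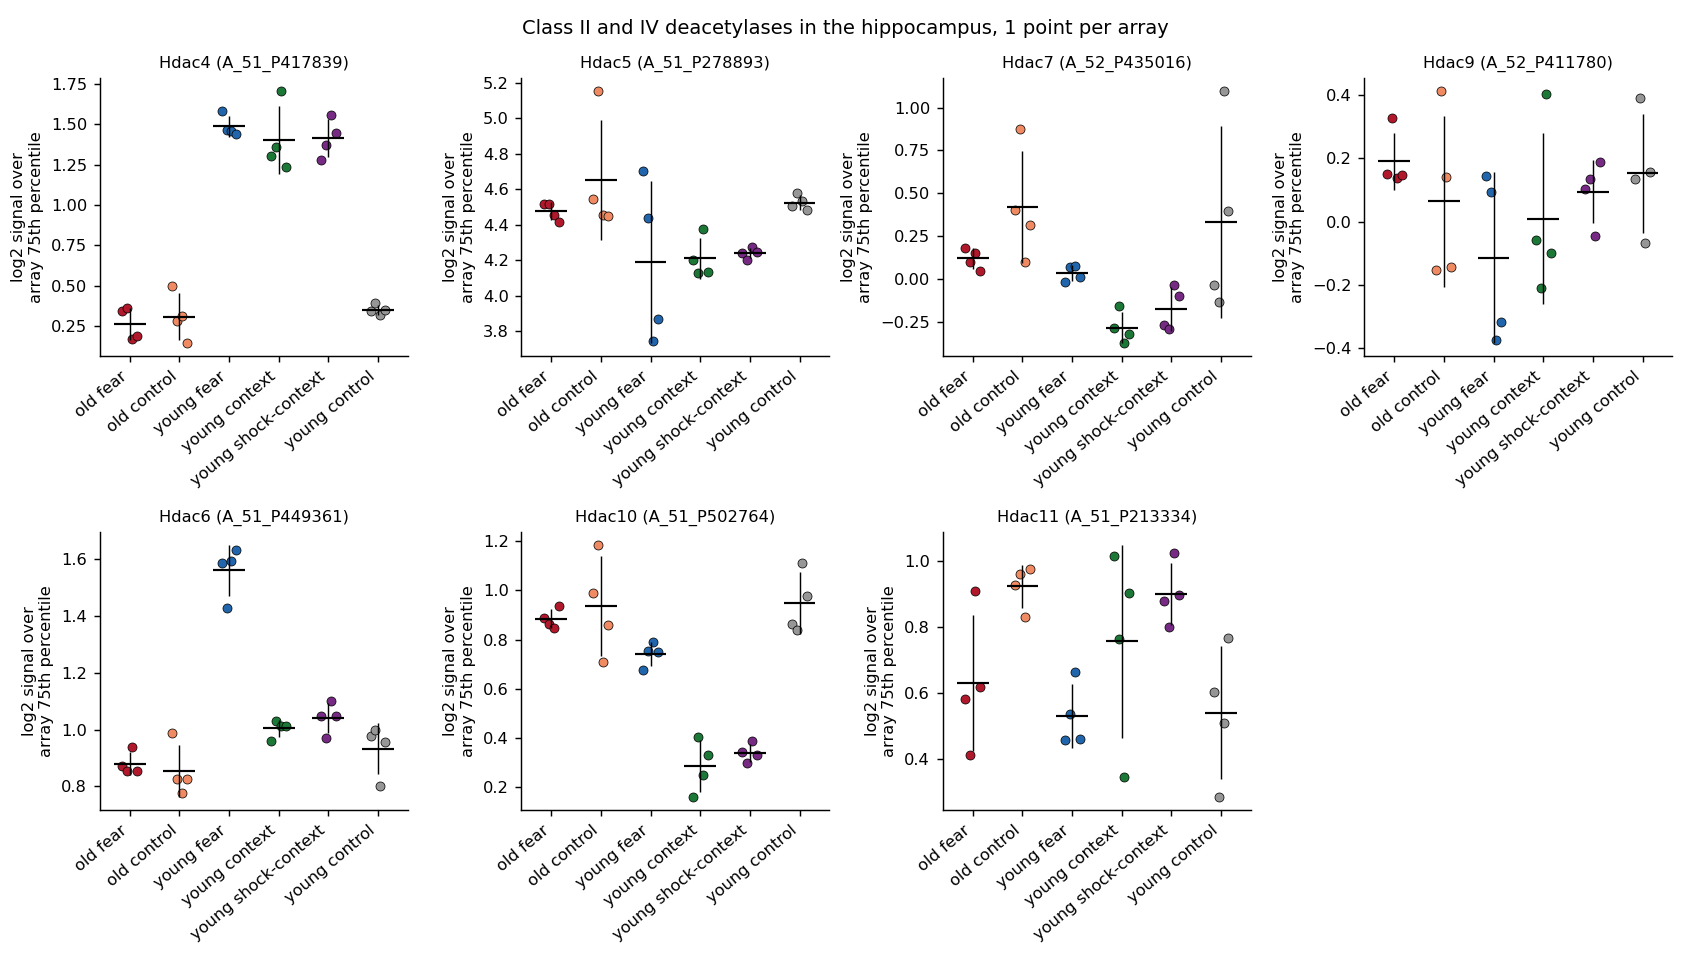
Log2 signal relative to the 75th percentile of the array (vertical axis) for the representative probe of each of the 7 genes, in the 6 groups (horizontal axis), with 1 point per array, a bar at the group mean and a vertical line of 1 SD either side. Hdac4 sat between 1.44 and 1.58 in young fear arrays and between 0.32 and 0.39 in young control arrays, and Hdac6 between 1.43 and 1.63 in young fear and between 0.80 and 1.00 in young control.

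Hdac4 is the class IIa enzyme best known in neurons as a repressor of synaptic genes. Its probe lies on the reverse strand at chr1:93829554-93829613 (mm9), as does the gene, and the opening 30 of its 60 bases are shown because the largest change among the members rests on it.
Hdac4 probe: acttgggcagagttgctgaatcaagttgac
The log2 signal of Hdac4 was 1.58, 1.47, 1.46 and 1.44 in young fear arrays and 0.34, 0.39, 0.32 and 0.35 in young control arrays. All 4 young fear arrays lay more than 1 log2 unit above every young control array. Hdac4 rose by 1.13 ± 0.10 (SE, 95% interval 0.93 to 1.34, adjusted p = 2.80e-08) in young fear against young control, a fold of 2.19, or 1.48 relative to the median of all genes. The within-slide differences were 1.24, 1.07, 1.14 and 1.09, the adjusted p with slide as a block was 4.15e-06, and 553 of the 26089 genes had a larger rise. In old mice the values were 0.34, 0.36, 0.17 and 0.19 after fear conditioning and 0.50, 0.28, 0.31 and 0.14 in controls. The old groups overlapped, the change was -0.04 ± 0.10 (95% interval -0.25 to 0.16, adjusted p = 0.878), and the response of old mice was lower than that of young mice by 1.18 on the log2 scale (-1.18 ± 0.14, 95% interval -1.47 to -0.89, adjusted p = 8.24e-06). Handled old and young mice did not differ beyond their spread (-0.04, adjusted p = 0.955), whereas old fear arrays were all below young fear arrays (-1.22 ± 0.10, adjusted p = 1.52e-08).

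Hdac4 was also high in the young mice that met the chamber without the association. Its log2 signal was 1.30, 1.36, 1.71 and 1.24 in young context arrays and 1.28, 1.37, 1.56 and 1.45 in young shock-context arrays. These 8 values all lay above those of young control arrays and overlapped those of young fear arrays. The differences from young control were 1.05 ± 0.10 for context (adjusted p = 1.50e-08) and 1.06 for shock-context (adjusted p = 1.64e-08), across scan runs. Young fear differed from context by 0.08 (adjusted p = 0.463) and from shock-context by 0.07 (adjusted p = 0.535); with the values the authors deposited both passed, at 0.31 (adjusted p = 0.0304) and 0.35 (adjusted p = 0.0179). Ordered by mean, Hdac4 ran from old fear (0.27 ± 0.10) through old control (0.31 ± 0.15), young control (0.35 ± 0.03), young context (1.40 ± 0.21) and young shock-context (1.41 ± 0.12) to young fear (1.49 ± 0.06, SD, n = 4 each), and only the step between young control and young context had no overlap.

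Beside these values, the choroid plexus, thalamus and other markers of young fear arrays moved as given above, and their part in the rise of Hdac4 was not tested. The summed choroid plexus level was 51.29 to 105.58 in context and 63.40 to 134.42 in shock-context arrays. The thalamus sum was 15.82 to 17.66 in context and 16.97 to 17.53 in shock-context arrays. In old mice the thalamus sum was 28.55 to 39.26 in fear and 17.66 to 21.54 in control arrays. The oligodendrocyte sum was 174.44 to 206.61 in context and 198.87 to 208.00 in shock-context arrays. In old mice the oligodendrocyte sum was 150.98 to 171.55 in fear and 159.21 to 191.35 in control arrays. In RNA from whole hippocampus, a change in the number of cells of a type and a change in RNA per cell cannot be told apart.

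Hdac6 is the class IIb deacetylase of the cytoplasm, with 2 catalytic domains and a ubiquitin-binding zinc finger. Its probe lies on the reverse strand at chrX:7507434-7507493 (mm9), and the opening 30 bases are shown because this is the other member that changed in young mice.
Hdac6 probe: ttgaataccctttgccaggtgcttatttaa
The log2 signal of Hdac6 was 1.59, 1.43, 1.59 and 1.63 in young fear arrays and 0.98, 1.00, 0.80 and 0.96 in young control arrays. All young fear arrays were above all young control arrays. Hdac6 rose by 0.63 ± 0.07 (SE, 95% interval 0.48 to 0.77, adjusted p = 6.49e-07), a fold of 1.54, or 0.97 relative to the median of all genes. The within-slide differences were 0.61, 0.43, 0.79 and 0.67, and with slide as a block the adjusted p was 0.000174. In old mice it was 0.87, 0.85, 0.94 and 0.85 after fear conditioning and 0.99, 0.83, 0.78 and 0.83 in controls. These overlapped (0.03, 95% interval -0.12 to 0.17, adjusted p = 0.899), and the old response was lower than the young one (-0.60 ± 0.10, adjusted p = 0.000202).

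Unlike Hdac4, Hdac6 was not clearly raised in context and shock-context mice. Its log2 signal was 0.96, 1.03, 1.01 and 1.01 in young context arrays and 1.05, 0.97, 1.10 and 1.05 in young shock-context arrays. All 8 lay below every young fear array. Young fear was higher than context by 0.56 ± 0.07 (adjusted p = 1.12e-06) and higher than shock-context by 0.52 ± 0.07 (adjusted p = 3.09e-06), across scan runs. The median of all genes was 0.33 and 0.31 higher in these comparisons, and relative to it Hdac6 was higher by 0.22 and 0.21. Against young control the differences were 0.07 (adjusted p = 0.381) for context and 0.11 (adjusted p = 0.184) for shock-context. Relative to the median of all genes, which was -0.48 and -0.42, they were 0.55 and 0.53. These 2 differences passed when arrays were scaled to their median, at 0.42 (adjusted p = 0.000988) and 0.49 (adjusted p = 0.000273). The choroid plexus, thalamus and oligodendrocyte sums of context and shock-context arrays are given above. The part of these markers in the rise of Hdac6 was not tested.

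Hdac4 and Hdac6 both rose in young fear arrays, and of all pairs of members they had the highest correlation over the control and fear arrays (Pearson r = 0.97 over 16 arrays, which share slides and groups). With group means taken out it was 0.34. That was below Hdac7 with Hdac10 (0.84) and Hdac5 with Hdac9 (0.82) and above all remaining pairs. Their promoter windows, 250 bases before to 50 bases after the annotated start in RefSeq on GRCm38.p6, are shown because both rose, in the gene's own direction, with matches to TGACG, the half-site of the cAMP response element (CRE), and to CCAAT in capitals.
Hdac4 promoter, chr1:92180292-92180591, reverse strand: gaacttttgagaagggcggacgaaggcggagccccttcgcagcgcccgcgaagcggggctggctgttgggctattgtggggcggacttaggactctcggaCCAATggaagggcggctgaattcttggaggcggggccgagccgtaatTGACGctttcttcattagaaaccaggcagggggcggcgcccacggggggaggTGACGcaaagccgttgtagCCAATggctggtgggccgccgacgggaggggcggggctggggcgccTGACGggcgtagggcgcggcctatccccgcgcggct
Hdac6 promoter, chrX:7947840-7948139, reverse strand: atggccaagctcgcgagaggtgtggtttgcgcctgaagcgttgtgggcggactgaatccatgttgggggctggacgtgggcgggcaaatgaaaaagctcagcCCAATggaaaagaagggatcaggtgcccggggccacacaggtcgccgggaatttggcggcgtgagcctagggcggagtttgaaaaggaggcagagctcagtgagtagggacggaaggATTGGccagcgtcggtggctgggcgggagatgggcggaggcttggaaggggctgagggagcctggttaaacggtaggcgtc
Motifs were searched on both strands. The Hdac4 window held 3 TGACG matches, starting 103 and 51 bases before and 14 bases after the start, and 2 CCAAT matches 150 and 32 bases before it. The Hdac6 window held 2 CCAAT matches 148 and 31 bases before its start and no TGACG. Of 32851 RefSeq promoter windows of the same length, 20.8% held TGACG and 37.4% held CCAAT. Neither window held the full CRE TGACGTCA, which contains the half-site (1.8% of windows), the MEF2 motif (3.2%), the CArG box (1.6%) or the E-box CACGTG (7.2%). The windows of Hdac5 and Hdac11, which did not pass in young mice, held such matches too: 2 TGACG, 2 CCAAT, 1 MEF2 motif and 1 E-box for Hdac5, and 1 TGACG and 1 CCAAT for Hdac11. The windows of Hdac7 and Hdac9 held none of these motifs.

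Hdac5, a class IIa enzyme known in neurons for leaving the nucleus on activity, passed in none of the 10 comparisons. Its probe (chr11:102057068-102057122, mm9, reverse strand) gave 4.71, 4.44, 3.75 and 3.87 in young fear arrays and 4.51, 4.58, 4.53 and 4.48 in young control arrays. Young fear replicates 3 and 4 were well below every control and replicate 1 was above them all. The change was -0.34 ± 0.17 (95% interval -0.68 to 0.01, adjusted p = 0.109), and without young fear replicate 1 it was -0.51 (adjusted p = 0.0127). The median of all genes was also -0.34, and relative to it Hdac5 changed by 0.01. In old mice it was 4.52, 4.52, 4.46 and 4.42 after fear conditioning and 4.55, 5.15, 4.46 and 4.45 in controls, which overlapped. Context arrays (4.20, 4.13, 4.38 and 4.14) and shock-context arrays (4.24, 4.20, 4.27 and 4.25) all lay below the young control arrays, across scan runs. The changes were -0.31 (adjusted p = 0.0996) and -0.28 (adjusted p = 0.142). In these comparisons 62.9% and 61.9% of genes did not overlap, and the median of all genes was -0.48 and -0.42. Relative to that median Hdac5 was higher, by 0.17 and 0.14.

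Hdac7 is a class IIa enzyme best known from blood vessels and thymocytes. It had 2 probes 651 bases apart on chromosome 15, and their opening 30 bases are shown because they disagreed.
Hdac7 probe A_52_P435016, chr15:97623442-97623501, reverse strand: caacggtgccaaaccttcatctcccttcaa
Hdac7 probe A_51_P403234, chr15:97624093-97624152, reverse strand: agaggaagaacccatgaacctctagggttt
The probe A_52_P435016, which represents the gene because its mean is higher, gave -0.02, 0.07, 0.07 and 0.01 in young fear arrays and -0.03, -0.14, 1.10 and 0.40 in young control arrays. The control values spanned more than 1 log2 unit around the young fear ones, and the change was -0.30 ± 0.19 (adjusted p = 0.208). In old mice it gave 0.18, 0.10, 0.15 and 0.04 after fear conditioning and 0.40, 0.87, 0.10 and 0.32 in controls, which overlapped (-0.30, adjusted p = 0.472). The probe A_51_P403234 gave -1.92, -1.89, -1.72 and -1.89 in young fear arrays and -2.45, -2.59, -2.19 and -1.87 in young control arrays. Young control replicate 4 lay among the young fear arrays and the other three below them. In the fit of every probe, where 44.6% of 38768 probes passed, it was higher by 0.42 ± 0.12 (adjusted p = 0.00841), with within-slide differences of 0.53, 0.69, 0.47 and -0.01, and by 0.09 (adjusted p = 0.806) with another background correction (normexp). Its old response was lower than its young one (-0.55 ± 0.17, adjusted p = 0.0212, where 25.9% of probes passed, and -0.29 with adjusted p = 0.627 under normexp), and it changed by -0.14 in old fear against old control (adjusted p = 0.646). The difference between the 2 probes' changes was -0.72 (exact permutation test, two-sided, p = 0.0286, the smallest that 4 against 4 arrays can give, and 0.0714 after adjustment over 5 probe pairs).
In context arrays A_52_P435016 gave -0.29, -0.16, -0.38 and -0.32 and in shock-context arrays -0.27, -0.30, -0.04 and -0.10. Against young control, A_52_P435016 was lower in context arrays (-0.62 ± 0.19, adjusted p = 0.00682, where 70.4% of genes passed). It was also lower in shock-context arrays (-0.51 ± 0.19, adjusted p = 0.0236, where 66.8% of genes passed, and -0.25 with adjusted p = 0.130 without young control replicate 3). In the fit of every probe, 68.8% of probes passed for context and 65.4% for shock-context. There A_51_P403234 was higher, by 0.60 (adjusted p = 0.000185) and 0.67 (adjusted p = 6.94e-05). The median of all genes was -0.48 and -0.42 in these comparisons, and relative to it A_52_P435016 changed by -0.13 and -0.09. The 2 probes thus had changes of opposite sign, across scan runs, but that of A_52_P435016 was close to the median of all genes.

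Hdac9, a class IIa enzyme that also occurs as a short form without the deacetylase domain, had 4 probes spread over more than 300 kb of chromosome 12. The opening 30 bases of the 3 that rose above background are shown because they gave different changes.
Hdac9 probe A_52_P411780, chr12:35056507-35056566: cctggaaccagtaaaaagaaaagctggaca
Hdac9 probe A_51_P204031, chr12:35074257-35074316: ttacaccctcagtctcctttggcaacaaaa
Hdac9 probe A_51_P255467, chr12:34735842-34735901: gtgatgccactgaattcccaggtcttagaa
The representative probe A_52_P411780 gave 0.14, 0.09, -0.37 and -0.32 in young fear arrays and 0.13, 0.39, -0.07 and 0.16 in young control arrays. These overlapped (-0.27 ± 0.15, adjusted p = 0.156), and this probe passed in none of the 10 comparisons. In old mice it gave 0.15, 0.33, 0.14 and 0.15 after fear conditioning and -0.15, 0.41, 0.14 and -0.14 in controls, which overlapped. The probe A_51_P204031, 17.8 kb from it, gave -2.85, -2.66, -2.91 and -3.08 in young fear arrays and -2.49, -1.96, -1.91 and -2.05 in young control arrays. Every young fear array was lower than every young control array (-0.77 ± 0.23, adjusted p = 0.0106, and -0.85 with adjusted p = 0.0894 under normexp). In old mice, where 0.126% of probes passed, it changed by 0.08 (adjusted p = 0.904), and the difference between the responses was 0.85 ± 0.33 (adjusted p = 0.0631, and 0.00709 with slide as a block).
In context arrays A_51_P204031 gave -1.09, -1.09, -1.90 and -1.32. This was higher than young control by 0.76 ± 0.23 (adjusted p = 0.00702), across scan runs, where 68.8% of probes passed. In shock-context arrays it gave -1.14, -1.51, -1.44 and -2.58, a difference of 0.43 (adjusted p = 0.108). Young fear was lower than context by 1.53 on the log2 scale (-1.53 ± 0.23, adjusted p = 9.95e-06), also across scan runs, where 65.9% of probes passed. The probe A_51_P255467, 320.7 kb from the representative one, ran the other way across scan runs: it was lower in context (-1.01 ± 0.18, adjusted p = 4.03e-05) and in shock-context arrays (-1.05, adjusted p = 3.03e-05) than in young control arrays. That pair of calls was lost under quantile normalization and with the deposited values, and in young fear against young control it changed by -0.17 (adjusted p = 0.421). The last Hdac9 probe, A_52_P76792, was well above background on 5 of 24 arrays, and no change is given for it.

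**Figure D2:**
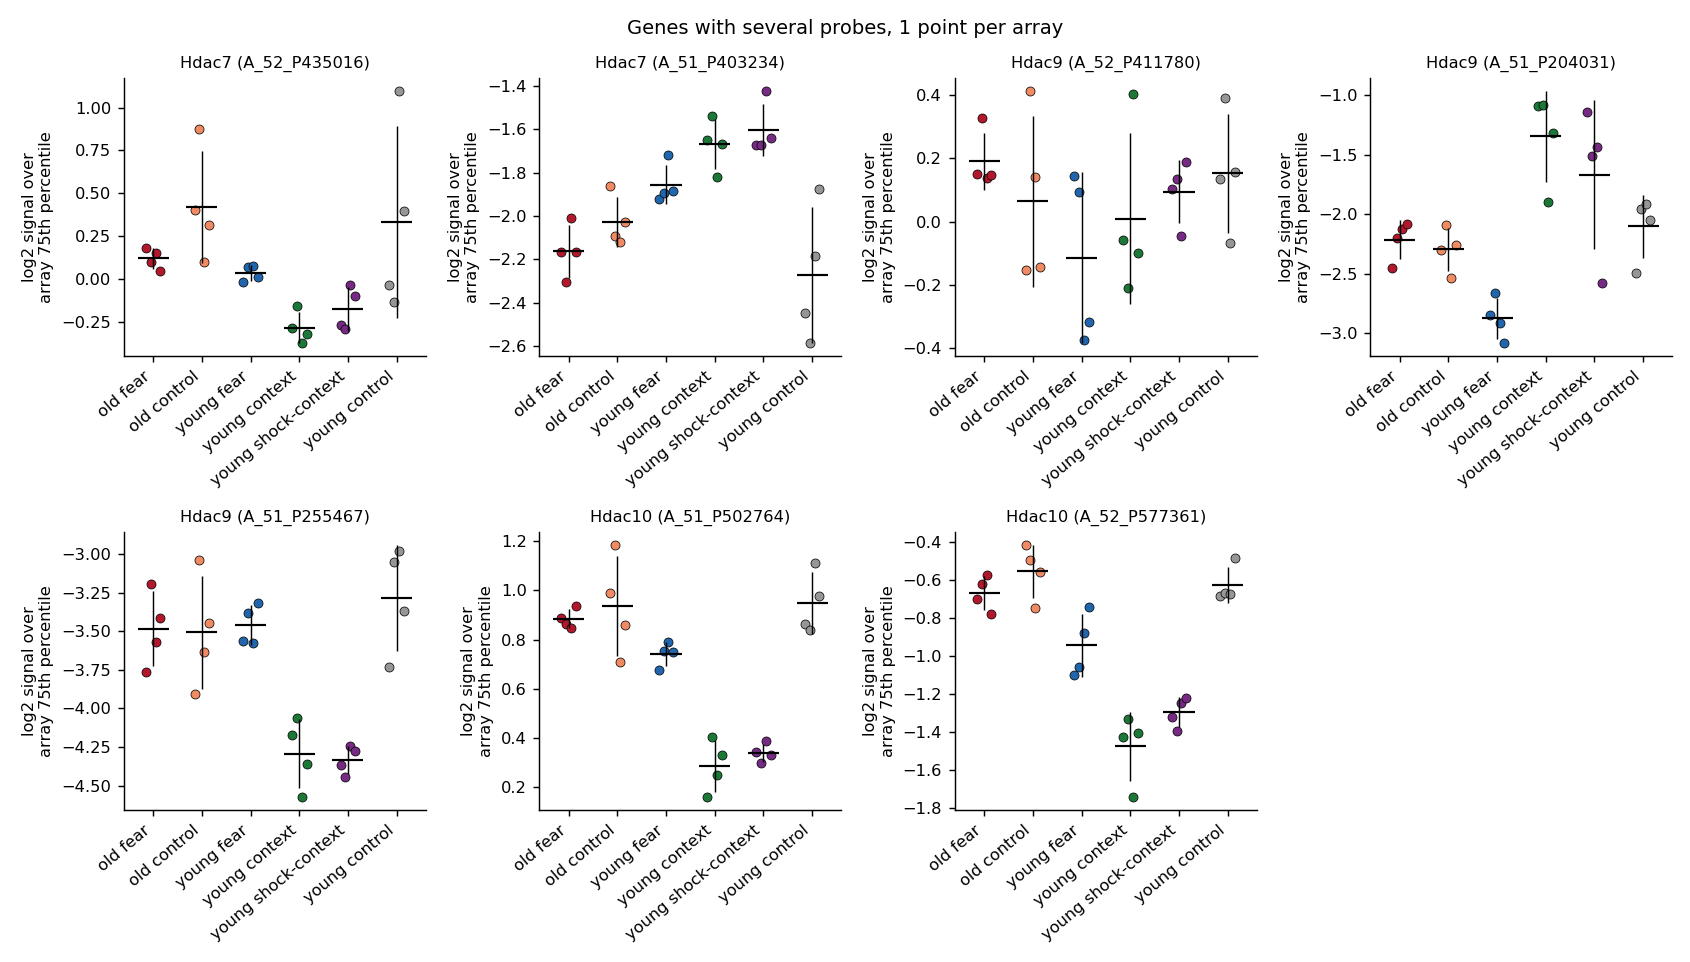
Log2 signal relative to the array's 75th percentile (vertical axis) for 7 probes of the genes that had more than 1, by group (horizontal axis), with 1 point per array, a bar at the mean and a vertical line of 1 SD either side. The 2 Hdac7 probes moved in opposite directions between context or shock-context arrays and young control arrays, where the fall of A_52_P435016 was close to the median of all genes. The Hdac9 probe A_51_P204031 was lowest in young fear arrays, at -3.08 to -2.66.

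Hdac10, the polyamine deacetylase, had 2 probes 218 bases apart on chromosome 15, and they agreed in direction. The representative probe A_51_P502764 (chr15:88953840-88953899, mm9) gave 0.68, 0.75, 0.79 and 0.75 in young fear arrays and 0.86, 0.84, 1.11 and 0.98 in young control arrays. The young fear arrays all lay below the young control arrays, but the change did not pass (-0.21 ± 0.09, adjusted p = 0.0706). Relative to the median of all genes, -0.34, it was higher by 0.14. The probe A_52_P577361 (chr15:88954058-88954117) gave -1.10, -1.06, -0.88 and -0.74 in young fear arrays and -0.68, -0.67, -0.67 and -0.48 in young control arrays. In the fit of every probe, where 44.6% of probes passed, it fell by 0.32 on the log2 scale (-0.32 ± 0.10, adjusted p = 0.0164). This is close to the median of all probes, -0.27. The call was lost under median scaling (-0.18, adjusted p = 0.163) and without young control replicate 4, young fear replicate 1 (-0.27, adjusted p = 0.062) or young fear replicate 2. In context arrays the representative probe gave 0.16, 0.40, 0.25 and 0.33 and in shock-context arrays 0.34, 0.30, 0.39 and 0.33. All 8 lay below the young fear and young control arrays. The changes from young control were -0.66 ± 0.09 (adjusted p = 1.80e-06) and -0.61 (adjusted p = 6.22e-06), across scan runs, where the median of all genes was -0.48 and -0.42. In old mice Hdac10 gave 0.89, 0.86, 0.85 and 0.94 after fear conditioning and 0.99, 1.19, 0.71 and 0.86 in controls, which overlapped.

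Hdac11, the class IV enzyme, is abundant in brain and oligodendrocytes. Its probe (chr6:91124085-91124144, mm9, forward strand) gave 0.46, 0.54, 0.67 and 0.46 in young fear arrays and 0.60, 0.28, 0.51 and 0.77 in young control arrays. These overlapped (-0.01, adjusted p = 0.949). In old mice it gave 0.58, 0.41, 0.91 and 0.62 after fear conditioning and 0.93, 0.96, 0.83 and 0.98 in controls, a change of -0.29 ± 0.13 that did not pass (adjusted p = 0.321). Old control arrays were all above young control arrays, by 0.38 ± 0.13 (adjusted p = 0.241), with within-slide differences of 0.33, 0.68, 0.32 and 0.21. Shock-context arrays gave 0.88, 0.80, 1.03 and 0.90, higher than young control by 0.36 ± 0.13 (adjusted p = 0.0195) across scan runs, and context arrays 1.01, 0.76, 0.34 and 0.90 (0.22, adjusted p = 0.145). The shock-context call was lost without young control replicate 2 (adjusted p = 0.0813) or shock-context replicate 3 (adjusted p = 0.0578).

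Counted over the family, 2 of 7 members passed in young fear against young control, both higher, where 43.3% of 26089 genes passed. Of all genes 13.1% were higher and 30.2% lower in that comparison, and no member was lower. The members' median change was -0.21 and that of all genes -0.34. The groups did not overlap for 3 members, Hdac4, Hdac6 and Hdac10, and for 41.3% of genes. In old fear against old control 0 of 7 members passed limma's threshold, where 0.142% of genes passed, and 1 member had an unadjusted p below 0.05. The groups did not overlap for 0 members there and for 8.14% of genes. The response differed between ages for Hdac4 and Hdac6, both lower in old mice, where 23.9% of genes passed and 8.02% were lower.
In old control against young control 0 of 7 members passed, beside 0.728% of genes, with 1 member at an unadjusted p below 0.05 and 1 whose groups did not overlap, Hdac11, beside 4% of genes. In old fear against young fear Hdac4 and Hdac6 were lower, 2 of 7, beside 37.9% of genes called and 13% lower, and 3 members did not overlap, beside 42.8% of genes. With 28.6% of members called in young fear against young control and in old fear against young fear, the members' share lay below that of all genes in both. For the difference between the age responses the same 28.6% lay above the 23.9% of all genes. Each share is 2 of 7 members, too few to set the family apart from all genes.
Across scan runs, 3 of 7 members passed in context against young control (70.4% of genes), Hdac4 higher (14% of genes) and Hdac7 and Hdac10 lower (56.3%), and 4 did not overlap (62.9%). In shock-context against young control 4 of 7 passed (66.8%), Hdac4 and Hdac11 higher (12.3%) and Hdac7 and Hdac10 lower (54.6%), and 4 did not overlap (61.9%). These 2 comparisons share the young control arrays. Young fear was higher than context in 2 of 7 (65.9% of genes called, 47.6% higher), Hdac6 and Hdac10, and 3 did not overlap (62.3%). Young fear was higher than shock-context in the same 2 genes (64.9% called, 46.6% higher) and lower in Hdac11 (-0.37 ± 0.13, adjusted p = 0.0172, beside 18.4% of genes lower), and 4 did not overlap (65.2%). Context and shock-context, on the same scan run, differed in 0 of 7 members and in 0% of genes by limma, with 0 members and 1313 genes at an unadjusted p below 0.05, and 0 members and 6.78% of genes did not overlap.

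**Figure D3:**
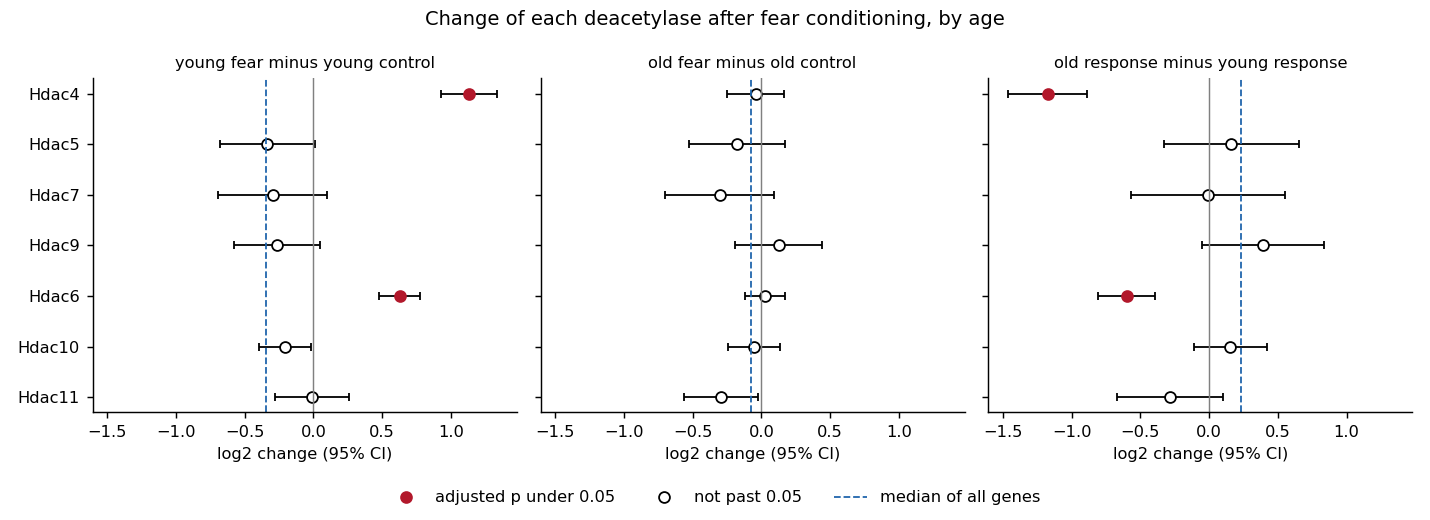
Log2 change with its 95% interval (horizontal axis) for the 7 genes (vertical axis), filled where it passed the threshold, in panels of young fear minus young control, old fear minus old control, and the difference between the old and young responses, with the median of all genes marked. Intervals of Hdac4 and Hdac6 lay above 0 in young mice, at 1.13 and 0.63, and included 0 in old mice.

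Genes whose pattern over the 16 control and fear arrays was most like each member's were ranked by Pearson's r over 19141 genes with a symbol, as a description of arrays that share slides and groups. Nearest to Hdac4 were Gtpbp10 (0.99), Wsb1 (0.99) and Ap1ar (0.98), and nearest to Hdac6 were Ggcx, Zfp384 and Hdlbp (0.99 each). Hdac5 was nearest Cds2 (0.91), Hdac7 nearest Mybl2 (0.96), Hdac9 nearest Slc25a36 (0.91), Hdac10 nearest Magi2 (0.93) and Hdac11 nearest Nagpa (0.94). Among the members, Hdac7 and Hdac10 correlated at 0.84, also with group means taken out, and Hdac5 and Hdac9 at 0.78 (0.82 with group means taken out).

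The partner genes were counted beside the 13.1% of all genes that were higher and the 30.2% that were lower in young fear against young control, and the part of the marker lists above in their changes was not tested. Of the 13 genes listed as DNA-binding partners of class IIa enzymes, 2 rose (15.4%) and 5 fell (38.5%). These shares were near those of all genes, and the median was -0.52 beside -0.34 over all genes. Mef2c, a MEF2 factor that holds synapse number in check in hippocampal neurons, fell by 1.26 on the log2 scale (-1.26 ± 0.15), Mef2b changed by -1.13 ± 0.12 and Mef2d by -0.52 ± 0.12, while Mef2a rose by 0.54 ± 0.13. Rfxank, in the same list, is an ankyrin-repeat protein that binds class IIa enzymes, and changed by -0.90 ± 0.12.
Of the 7 genes listed with the NCoR/SMRT corepressor, through which class IIa enzymes act with Hdac3, 5 rose (71.4%) and none fell, with a median of 0.47. Cbx5 in that list is the heterochromatin protein HP1 alpha, not a subunit of the corepressor, and rose by 0.75 ± 0.09; of the other 6 genes 4 rose, with a median of 0.39. Gps2 rose by 1.27 ± 0.31, Tbl1x by 0.64 ± 0.17 and Hdac3 itself by 0.47 ± 0.10. Of the 7 genes for 14-3-3 proteins, 3 rose (Ywhag by 0.54 ± 0.10, Ywhaz by 0.58 ± 0.11 and Ywhab by 0.49 ± 0.11) and 1 fell, Ywhah (-0.68 ± 0.15), whose sign turned under quantile normalization (0.02) and with the deposited values (0.12).
Of 18 kinases that phosphorylate class IIa enzymes for export from the nucleus or act upstream of them, 3 rose (16.7%) and 6 fell (33.3%), shares near those of all genes, with a median of -0.17. Camk4, a calcium/calmodulin-dependent kinase of the nucleus, fell most (-1.64 ± 0.16), followed by Sik3 (-1.09 ± 0.14) and Camk1d (-1.06 ± 0.26), and Camk2g changed by -0.39 ± 0.09 and by 0.13 with the deposited values. Of 9 phosphatase genes, 4 rose and 2 fell. Ppp2r1a and Ppp2r1b, scaffold subunits of protein phosphatase 2A, rose by 1.09 ± 0.15 and 0.61 ± 0.08 and its catalytic subunit Ppp2cb by 0.50 ± 0.12, while the calcineurin subunit Ppp3ca changed by -0.44 ± 0.11 and by 0.07 under quantile normalization.

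Of 15 measured partners and substrates of Hdac6, 2 rose and 2 fell. Cttn, the actin-binding substrate cortactin, rose by 1.21 ± 0.13 and Sirt2, the other main tubulin deacetylase, by 0.76 ± 0.07. Hsp90aa1, a chaperone substrate, fell (-0.84 ± 0.14), and Sqstm1, an autophagy receptor, changed by -0.37 ± 0.12 and by 0.05 and 0.02 under quantile normalization and with the deposited values. Of 12 polyamine genes, the pathway of Hdac10's substrates, 1 rose and 6 fell, with a median of -0.36 beside -0.34 over all genes: Smox, spermine oxidase, rose by 1.14 ± 0.14, and Paox (-0.98 ± 0.13), Odc1 (-0.88 ± 0.11), the enzyme that begins polyamine synthesis, and Sat2 (-0.62 ± 0.08) fell. Of the genes tied to Hdac11, its substrate Shmt2 rose by 0.41 ± 0.10, and Gmnn (-1.30 ± 0.12) and Cdt1 (-0.84 ± 0.13), a pair that controls replication licensing, fell.

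Of 11 measured MEF2 and activity target genes, 3 rose and 4 fell in young fear against young control. Fos, an early gene of neuronal activity, rose by 2.41 ± 0.29 and Homer1, a synaptic scaffold, by 0.95 ± 0.14, while Klf6 (-1.08 ± 0.10) and Ppargc1a (-0.65 ± 0.16) fell. In old fear against old control, Fos was the only gene past the threshold among all 9 of these lists (1.78 ± 0.29, adjusted p = 0.0113, and 1.74 with adjusted p = 0.062 without old fear replicate 4).

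**Figure D4:**
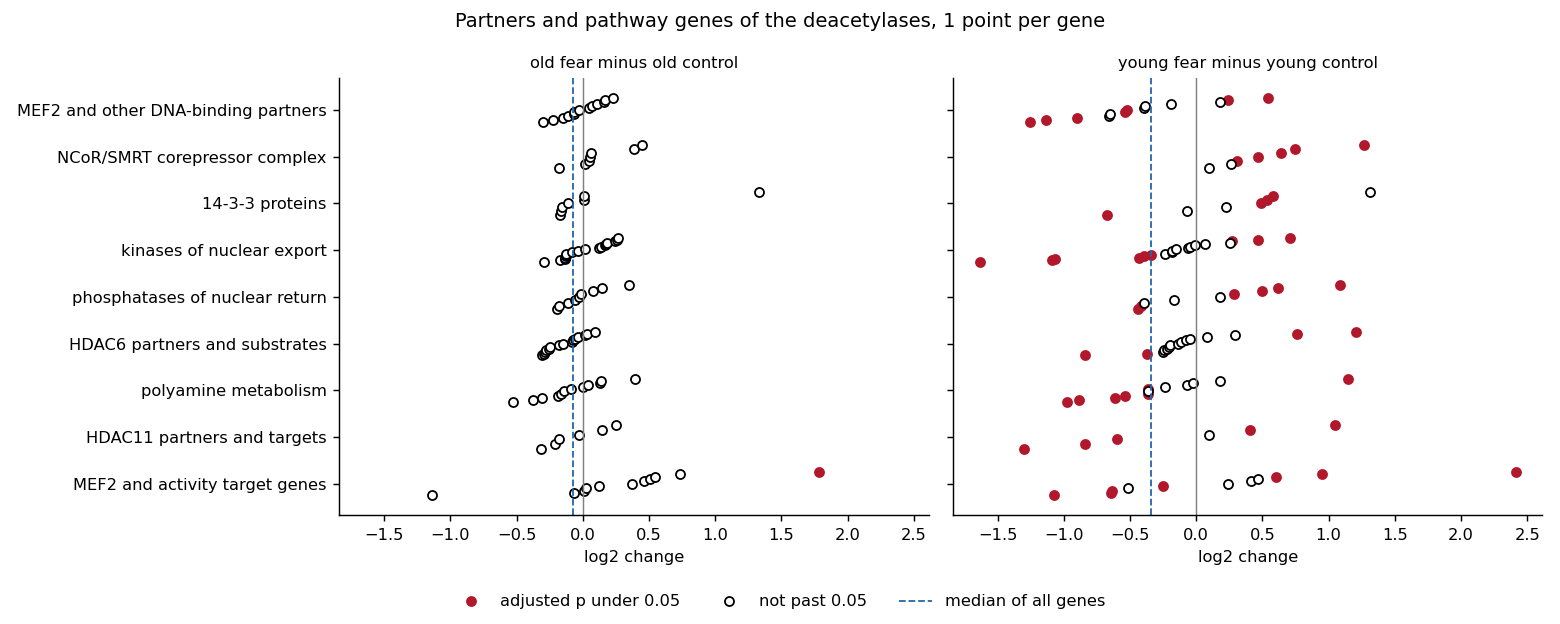
Log2 change (horizontal axis) of every measured gene of the 9 partner and target lists (vertical axis), 1 point per gene and filled where it passed the threshold, with old fear minus old control on the left, young fear minus young control on the right and a dashed line at the median of all genes. Camk4 (-1.64) and Mef2c (-1.26) were lower and Cttn (1.21) and Fos (2.41) higher in young fear, and Fos (1.78) was the filled point in old mice.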

How the data were processed

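Each array's intensity was deposited as Agilent Feature Extraction 9.5.3.1 output, background-subtracted per the file headers; the submitters' processing notes also name limma. A table deposited by the authors, whose values behave as log2 signals with every array's median at 8.57, served as an alternative only; how it was made is not given in the sources used here. Here each log2 signal was set relative to the array's 75th percentile, outlier spots were left out, spots were averaged, and a probe needed to be well above background on 4 of 24 arrays. The highest-mean probe represented a gene. limma 3.58.1 (R 4.3.3) fitted 6 group means over all 24 arrays with 18 residual degrees of freedom, two-sided, and was tested on simulated data. Members and lists were chosen with earlier results of these data known. Named genes were all members, up to 4 per list by smallest adjusted p in young fear against young control, any of a list past the threshold in old mice, and the nearest genes by correlation. Replicate numbers follow slides for the control and fear arrays only. Over 24 same-numbered array pairs the correlation of deviations ran from -0.416 to 0.652, with 15 over 0.1 and all 6 pairs of slide 1 at 0.36 to 0.59; as not every pair was over 0.1, slide was a block only in an alternative. Probe positions are mm9, from the later run's files. Precision is limited by the number of arrays. Alternatives were normalization, background correction, filters, blocks and single arrays left out. A gene of the lists is not reported here.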

Additional observations from a re-analysis of the deposited data

Results flagged for a closer look

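Of 72 groups of 4 arrays examined, 4 held an array whose gap to its nearest neighbour exceeded Dixon's limit, and chance gives about 1 in 20. Hdac10 probe A_52_P577361 was -0.48 in young control replicate 4, against -0.68 to -0.67 in the other three. Hdac5 was 5.15 in old control replicate 2, against 4.45 to 4.55. Hdac7 probe A_51_P403234 was -1.42 in young shock-context replicate 3, against -1.67 to -1.64. Hdac9 probe A_52_P411780 was 0.33 in old fear replicate 2, against 0.14 to 0.15. The change with fear conditioning differed between old and young mice, by the interaction in the limma fit, for Hdac4 (-1.18), Hdac6 (-0.60) and Hdac7 probe A_51_P403234 (-0.55).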

How the results depend on the processing

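Members past the threshold numbered 2 in young fear against young control under every planned setting except without young fear replicate 1, where Hdac5 also passed (range 2 to 3); over all genes the number was 11286, against 5325 under normexp. With slide as a replicate block, 2 members and 14239 genes passed. In old fear against old control 0 members passed, beside 37 genes (0 under normexp, 144 with slide as a random block, 17 with slide as a replicate block). Shock-context against young control gave 4 members, and 2 under normexp, deposited values and the replicate block; young fear against shock-context gave 3, and 1 under normexp. Among lists in young mice, normexp left 4 DNA-binding partners of 7, 3 NCoR/SMRT genes of 5 (3 also with the compared arrays alone), 4 kinases of 9, 2 phosphatases of 6 and 3 Hdac11 genes of 5. Hdac6 partners passing numbered 7 under quantile normalization and 11 with deposited values, against 4, and 7 without young control replicate 3. In old mice, 1 polyamine gene passed with deposited values, and activity targets gave 0 under normexp and the replicate block, 2 with a slide random block and 0 without old fear replicate 4. Signs turned for Camk2g (0.13, deposited), Ppp3ca (0.0744, quantile), Sqstm1 (0.0549 quantile, 0.0157 deposited) and Ywhah (0.0216 quantile, 0.12 deposited); the cause was not tested. Context and shock-context arrays of the same number lay on different slides, so their correlations of -0.383 to -0.339 do not test pairing by slide. Of 16 control and fear arrays, 7 were closest to their own number.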
